A study of Mus musculus with 8 samples.

Results

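The AP-1 and immediate early genes described here are the Fos family (*Fos*, *Fosb*, *Fosl1* and *Fosl2*), the Jun family (*Jun*, *Junb* and *Jund*) and *Atf3*, *Egr1* and *Ier2*. They are 10 of the 21951 protein-coding genes of the GENCODE annotation of mm10. They were chosen by name and not by a measured value, though with earlier results of these data known. Each gene was described by the peaks of PBRM1 and BRG1 within 2 kb of any of its annotated transcription start sites (TSSs), called its promoter here, and by the peaks from 20 kb before the gene to 20 kb after it.

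FOS, JUN and ATF proteins are basic leucine zipper factors that pair with each other. The pairs form AP-1, which binds the string TGANTCA, while pairs with ATF or CREB proteins prefer the cAMP response element TGACGTCA. Most of their genes are immediate early genes, which serum, growth factors or stress switch on within minutes and without new protein synthesis, in part through serum response factor at CArG boxes. EGR1 is a zinc finger factor that binds GCGNGGGCG, and IER2 is a nuclear protein of the same early response. In the uterus, estrogen is a known inducer of *Fos* and *Jun*. In fibroblasts, AP-1 is known to bring SWI/SNF complexes to enhancers.

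PBRM1 (BAF180), a subunit of the PBAF form of the SWI/SNF complex, and BRG1, an ATPase of both its BAF and PBAF forms, were mapped by chromatin immunocleavage sequencing (ChIC-Seq) in 3 replicates each. In this assay an antibody leads a micrococcal nuclease to its antigen in fixed cells, and the DNA cut out there is sequenced. All libraries were of primary uterine stromal cells from D4 WT mice aged 8 to 12 weeks. The strain is not given in the labels, and 2 IgG libraries were not analysed here. The labels describe uterine horns of 5 to 10 pseudopregnant mice after mating with a stud male, digested with enzymes that included collagenase for 30 min. The cells were kept for 4 h in medium with 10% charcoal-stripped serum and for 2 h in medium with 10% serum, and 50000 cells per library were fixed for 5 min. Tissue digestion and serum are both known to induce immediate early genes. All 6 replicates share them, so that their part in the peaks was not tested. The study describes biological replicates, and the labels do not say which animals each came from, so that p-values measure the spread between these libraries, whatever its source.

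The PBRM1 replicates held 8868777 to 16505239 fragments and 21912 to 26363 peaks, and the BRG1 replicates 11506964 to 14595089 fragments and 36656 to 40610 peaks. Peaks were called without a control library. Of the 9 stromal marker genes, such as *Vim* and *Pdgfra*, 9 had a promoter peak in both pooled lists and 6 in all 6 replicates. Of the 10 epithelial markers, 10 had one in both pooled lists but 1 in all 6 replicates. None of the 5 immune markers and 1 each of the 4 endothelial and 4 smooth muscle markers had one in all 6. Of all protein-coding genes, 68.7% had one in the pooled PBRM1 list, 72.1% in the pooled BRG1 list and 51.9% in all 6 replicates. A peak is no measure of expression, and its strength does not separate how many cells carry the antigen at a site from how much each cell carries.

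All 10 members had a promoter peak with both antibodies. They were in the pooled PBRM1 list, as were 68.7% of all protein-coding genes, and in the pooled BRG1 list, as were 72.1%. The count was 10 of 10 in all 3 PBRM1 replicates, against 52.2% of all genes, and in all 3 BRG1 replicates, against 61.4%. It was 10 of 10 in all 6 replicates, against 51.9%. Fold enrichment is the fragment pileup at the summit over the local background of the same library, and the strongest promoter peak of a gene is the one with the highest fold enrichment. Among genes with a promoter peak, the median percentile of the members by fold enrichment was 27.2 for PBRM1 and 25.0 for BRG1. When peaks had to reach a fold enrichment of 5, *Fos*, *Fosl1* and *Atf3* were the 3 members left in all 6 replicates. The share of all genes left at this minimum was not computed.

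In the order of mean fold enrichment, *Fosl1* stood first with both antibodies and *Junb* last. For PBRM1, the mean was 9.97 ± 2.48 (SD, n = 3) at *Fosl1* and 3.57 ± 0.763 (SD, n = 3) at *Junb*. Neither overlapped its neighbour in the order. The other 8 members lay between 4.74 and 6.53, and each overlapped the next. For BRG1, *Fosl1* had 9.85 ± 1.50 (SD, n = 3) and *Junb* 3.72 ± 0.209 (SD, n = 3). *Atf3* was second with 8.12 ± 0.240 (SD, n = 3), below every *Fosl1* replicate and above every *Fos* replicate. *Fosl2* and *Egr1*, with means of 5.03 and 4.89, overlapped each other, lay below the 7 genes before them and lay above *Junb*.

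**Figure D1:**
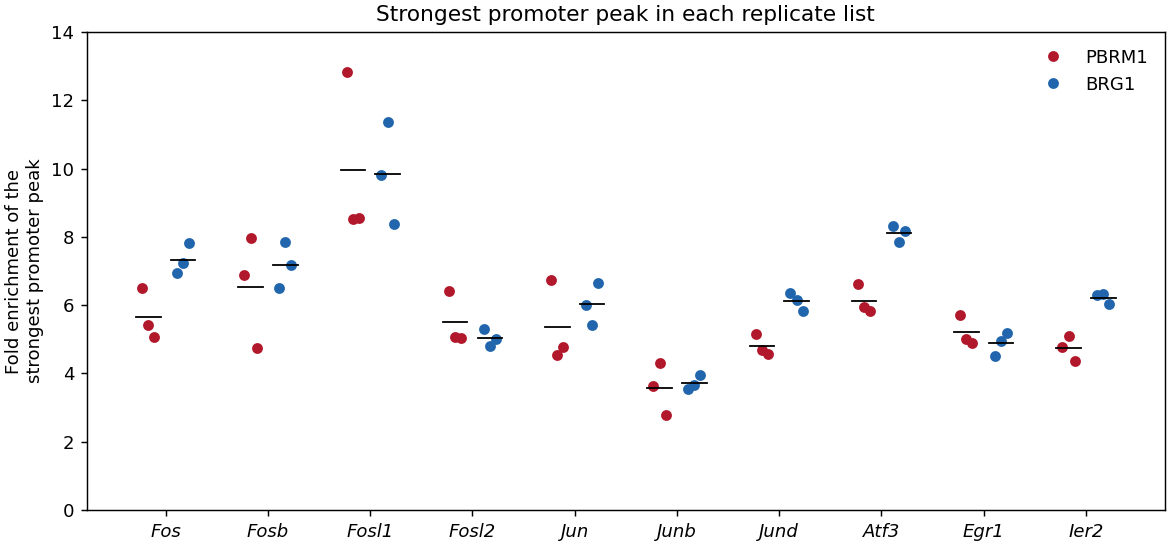
Fold enrichment of the strongest promoter peak of each member (y axis, no unit) in the 3 PBRM1 (red) and 3 BRG1 (blue) replicates, 1 point per replicate, with a black line at the mean. *Fosl1* is highest with both antibodies, with means of 9.97 and 9.85, and *Junb* is lowest, with means of 3.57 and 3.72.

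*Fos*, the founding AP-1 gene, lies at chr12:85473890-85477273 on the plus strand, and none of the sites around it was within 2 kb of another gene's TSS. Its strongest promoter peak was not at the start but 1.62 kb upstream. The fold enrichment there was 6.49, 5.41 and 5.05 in PBRM1 replicates 1 to 3 and 6.93, 7.24 and 7.83 in the BRG1 replicates. The BRG1 replicates all lay above the PBRM1 replicates, and the share of all genes separated in this way was not computed. Fold enrichment was also higher for BRG1 over all genes with a promoter peak in all 6 replicates, with a median of 8.90 against 7.03 for PBRM1. A second peak with its summit 63 bp after the start was weaker, with 4.69, 3.66 and 3.42 for PBRM1 and 4.35, 3.99 and 4.31 for BRG1. The strongest site of the locus was in the intergenic DNA 18.6 kb upstream. It had 10.0, 10.7 and 8.99 for PBRM1 and 8.79, 10.1 and 9.02 for BRG1, so that it exceeded the promoter in 3 of 3 replicates of each antibody. Its pooled fold enrichment was at the 97.0th percentile of all pooled PBRM1 peaks and the 91.8th of all pooled BRG1 peaks. The remaining site found in all 6 replicates was 12.2 kb downstream of the start, beyond the end of the gene, with 5.47, 5.98 and 4.25 for PBRM1 and 6.87, 7.85 and 8.18 for BRG1. Enhancers on both sides of *Fos* are known from neurons. Whether these sites are the same elements was not tested.

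The sequences of *Fos* are shown because its distal sites hold repeats of TGACGT, which is part of the cAMP response element, and a CArG box. They are mm10 (GRCm38), plus strand, with capitals for TGACGT on either strand and for the CArG box. The upstream site is chr12:85455349-85455494, the downstream site chr12:85486061-85486148 and the promoter stretch, from RefSeq, chr12:85473740-85473889, which ends 1 base before the start.
*Fos* upstream site: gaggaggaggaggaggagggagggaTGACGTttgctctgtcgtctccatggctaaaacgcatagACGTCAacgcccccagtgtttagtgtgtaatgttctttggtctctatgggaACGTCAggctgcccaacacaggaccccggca
*Fos* downstream site: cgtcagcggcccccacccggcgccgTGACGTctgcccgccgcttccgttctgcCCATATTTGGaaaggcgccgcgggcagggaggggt
*Fos* promoter: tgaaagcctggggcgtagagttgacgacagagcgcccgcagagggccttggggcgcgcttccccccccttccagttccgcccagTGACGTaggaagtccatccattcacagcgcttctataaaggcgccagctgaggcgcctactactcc

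The upstream stretch holds 3 matches, the downstream stretch 1 TGACGT whose centre is 4 bp from the BRG1 summit and 1 CArG box 26 bp from it. The promoter holds 1 TGACGT that begins 66 bases before the start. None of the 3 holds TGANTCA.

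*Fosb* (chr7:19302696-19310051, minus strand) encodes the FOS paralog known for lasting forms in neurons. Its promoter had peaks upstream of the start and inside the gene. The BRG1 peak at the start had its pooled summit 163 bp upstream and a fold enrichment of 6.51, 7.86 and 7.18. For PBRM1 the same site had 6.15, 7.98 and 4.73. In PBRM1 replicate 1 the peak 1.31 kb inside the gene was stronger, with 6.87. As at *Fos*, a distal site was the strongest of the locus. It lay 10.1 kb upstream in an exon of the noncoding gene *D830036C21Rik* and had 10.4, 7.84 and 7.49 for PBRM1 and 10.4, 9.98 and 12.8 for BRG1. It exceeded the promoter in 2 of 3 PBRM1 and 3 of 3 BRG1 replicates. A further site 16.6 kb upstream, in an intron of the same noncoding gene, was also in all 6 replicates, with 6.18 to 7.24 for PBRM1 and 6.46 to 8.19 for BRG1.

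*Fosl1* (chr19:5447547-5455946, plus strand), which encodes FRA1, had the strongest promoter peak of the set. Its fold enrichment was 12.8, 8.54 and 8.54 for PBRM1 and 9.80, 11.4 and 8.37 for BRG1. The antibodies overlapped. It was the member whose promoter stood above the 50th percentile in every replicate, among genes with a promoter peak in the same list. The percentiles were 76.2 to 95.8 for PBRM1 and 51.8 to 84.6 for BRG1. No distal site was found within 20 kb, since each of the 7 other sites was within 2 kb of another gene's TSS. The strongest of these, at the promoter of *Ccdc85b*, was 10.0 kb downstream of the *Fosl1* start.

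*Fosl2* (chr5:32135801-32157842, plus strand) encodes FRA2, the other FOS-related antigen. It had 1 site in all 6 replicates, a promoter peak whose pooled BRG1 form was 1743 bp wide. That pooled BRG1 peak was also within 2 kb of a TSS of *Gm10463*. The fold enrichment was 6.41, 5.08 and 5.03 for PBRM1 and 5.30, 4.80 and 5.00 for BRG1, and the antibodies overlapped. The 7 other sites of the locus were each found in at most 2 of the 6 replicates, with pooled fold enrichments of at most 3.98.

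*Jun*, the main partner of FOS, was the simplest locus. It lies at chr4:95049034-95052222 on the minus strand, with the antisense noncoding gene *Junos* starting near it. Its promoter held a domain 2335 bp wide in the pooled PBRM1 list and 1907 bp in the pooled BRG1 list. This domain was called as 2 peaks in each PBRM1 replicate and as 1, 3 and 1 in the BRG1 replicates. The highest fold enrichment in it was 6.74, 4.54 and 4.77 for PBRM1 and 5.99, 5.42 and 6.66 for BRG1. The summit of the peak with this highest value differed by antibody. It lay 481 to 494 bp upstream of the start in the PBRM1 replicates and 71 to 80 bp upstream in the BRG1 replicates. Where a list held further peaks in the domain, their summits were not compared. The only other site, 1.50 kb inside the gene, was in both pooled lists at 1.93 and 1.88 and in none of the replicates. There was no distal site.

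*Junb* (chr8:84974484-84978718, minus strand) encodes a JUN relative that often opposes it in cell growth. It was the opposite case, with 11 sites within 20 kb and 6 in all 6 replicates, yet the weakest promoter. The strongest promoter peak had 3.62, 4.30 and 2.78 for PBRM1 and 3.55, 3.65 and 3.96 for BRG1. The promoter held 3 peaks of nearly equal strength for BRG1, with pooled values of 3.63, 3.68 and 3.19 at 2.25 kb inside the gene, 119 bp upstream and 1.35 kb upstream. The pooled PBRM1 values were 3.50, 2.75 and 3.18. The chosen peak differed between replicates. The peak 119 bp upstream was in 1 of 3 PBRM1 replicates and 3 of 3 BRG1 replicates. The summit inside the gene lay 75 bp from another annotated start of *Junb*. The strongest site of the locus was 12.6 kb downstream of the start at the promoter of *Rnaseh2a*, with 7.46, 5.89 and 5.92 for PBRM1 and 11.1, 8.21 and 8.52 for BRG1. The site 7.02 kb upstream was intergenic and in all 6 replicates, with 5.86, 4.503 and 3.54 for PBRM1 and 5.12, 4.63 and 5.08 for BRG1.

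*Jund* (chr8:70698949-70700616, plus strand) encodes the JUN protein that is known to be less inducible than the others. Its promoter peak covered the start and was also within 2 kb of a TSS of *Gm11175*. It had 5.14, 4.67 and 4.56 for PBRM1 and 6.37, 6.16 and 5.82 for BRG1. All BRG1 values lay above all PBRM1 values, and the medians over all genes differed in the same direction. By percentile of fold enrichment among genes with a promoter peak, the *Jund* replicates overlapped (exact permutation test, p = 0.2). An intergenic site 16.6 kb upstream was stronger in 2 of 3 PBRM1 and 3 of 3 BRG1 replicates, with 6.30, 5.99 and 4.30 for PBRM1 and 8.37, 7.83 and 10.98 for BRG1.

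*Atf3* (chr1:191170296-191218039, minus strand) encodes a stress-induced ATF factor and has annotated starts far apart. Distances are given from the start of the transcript that GENCODE numbers first, which lies in the downstream promoter. The peak there had 6.61, 5.62 and 5.84 for PBRM1 and 8.32, 7.85 and 8.19 for BRG1. The peak near the far upstream start, 33.0 kb upstream, had 3.84, 5.94 and 4.63 for PBRM1 and 6.47, 7.05 and 6.17 for BRG1. It was the stronger of the pair in PBRM1 replicate 2 and in the pooled BRG1 list, where the values were 8.47 and 8.13. The strongest site of the locus was 41.1 kb upstream at the start of the noncoding gene *D730003I15Rik*, with 10.0, 8.01 and 5.31 for PBRM1 and 10.96, 11.7 and 11.5 for BRG1.

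The AP-1 string TGANTCA lay within 100 bp of the BRG1 summit at 5 of the sites found in all 6 replicates. They are printed because they show the AP-1 string in the windows around AP-1 genes. The nearest protein-coding start was that of another gene at the *Jund* site (*Lsm4*), the *Junb* site (*Hook2*) and the *Fosl1* site (*AI837181*). The share of all sites in the genome with the string this close to the summit was not computed. Each is mm10 in the direction of the member's transcription, with TGANTCA in capitals. The positions are chr8:70682306-70682362 (plus strand) for *Jund*, chr8:84985632-84985782 (minus strand) for *Junb*, chr1:191216280-191216336 (minus strand) and chr1:191224418-191224474 (minus strand) for *Atf3*, and chr19:5433516-5433594 (plus strand) for *Fosl1*.
*Jund*, 16.6 kb upstream: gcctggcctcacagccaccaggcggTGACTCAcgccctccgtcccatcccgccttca
*Junb*, 7.02 kb upstream: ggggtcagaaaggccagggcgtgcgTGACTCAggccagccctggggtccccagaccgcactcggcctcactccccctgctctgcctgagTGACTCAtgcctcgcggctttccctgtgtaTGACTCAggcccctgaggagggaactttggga
*Atf3*, 33.0 kb upstream: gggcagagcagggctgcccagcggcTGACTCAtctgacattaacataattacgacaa
*Atf3*, 41.1 kb upstream: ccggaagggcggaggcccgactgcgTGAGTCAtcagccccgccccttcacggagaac
*Fosl1*, 14.1 kb upstream: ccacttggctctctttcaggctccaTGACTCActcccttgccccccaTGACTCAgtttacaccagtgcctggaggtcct

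The *Jund* match was centred 1 bp from the pooled BRG1 summit. The nearest of the 3 *Junb* matches was 13 bp from it, the *Atf3* matches 27 and 43 bp, and the nearer of the 2 *Fosl1* matches 49 bp. The *Fosl1* site was within 2 kb of the starts of *AC122861.1* and *Gm25432*.

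*Egr1* (chr18:34859823-34864984, plus strand) encodes the zinc finger factor of the early response. Its strongest promoter peak was the widest of the set on average over the replicates. The mean width was 1489 ± 347 bp in the PBRM1 lists (SD, n = 3) and 1730 ± 303 bp in the BRG1 lists (SD, n = 3). In the pooled lists the peak spread from the start over the first part of the gene. The pooled BRG1 summit was 1.22 kb after the start and 165 bp before another annotated start of *Egr1*. By the width of the widest promoter peak, *Egr1* ranked at the 98.5th percentile or above in every replicate, among genes with a promoter peak. The fold enrichment was 5.72, 5.02 and 4.90 for PBRM1 and 4.53, 4.96 and 5.19 for BRG1, and the antibodies overlapped. The strongest site of the locus was at the *Reep2* promoter 19.2 kb upstream, with 11.1, 7.98 and 6.87 for PBRM1 and 11.8, 12.6 and 10.2 for BRG1.

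*Ier2* (chr8:84661331-84662852, minus strand) resembled *Fos* in that its strongest promoter peak was upstream of the start, by 1.28 to 1.29 kb in every replicate. Unlike at *Fos*, this peak was also within 2 kb of a TSS of another gene, *Gm26664*. The fold enrichment was 4.76, 5.09 and 4.36 for PBRM1 and 6.31, 6.34 and 6.02 for BRG1, with all BRG1 values above all PBRM1 values. The medians over all genes differed in the same direction. By the strongest promoter peak, the same separation held at *Fos*, *Jund* and *Atf3*, and its share over all genes was not computed. Within 1 kb of the start, *Ier2* had no peak in PBRM1 replicate 3, and its peak in the other replicates ranked at the 2.00th percentile or below. An intergenic site 5.89 kb downstream of the start was in all 6 replicates, with 4.92, 4.96 and 5.99 for PBRM1 and 4.44, 3.90 and 5.20 for BRG1.

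The rank of these promoters among all genes turned on the value used. For a percentile, each protein-coding gene with a promoter peak was ranked within a list by the highest value among its promoter peaks, so that fold enrichment and pileup can come from different peaks of a gene. By fold enrichment, 9 of 10 members lay below the 50th percentile on average with each antibody, and 9 of 60 replicate values were above it. The median over the members was 27.2 for PBRM1 and 25.0 for BRG1, against 54.7 and 58.9 over the 11388 genes with a promoter peak in all 6 replicates. By pileup, the height of the fragment stack before division by the background, 60 of 60 values were above the 50th percentile and 42 of 60 above the 90th. The median over the members was then 92.1 for PBRM1 and 93.8 for BRG1, against 54.9 and 59.8. When the pileup was taken from the peak highest by fold enrichment, a choice added after the data were seen, 59 of 60 values were above the 50th percentile, 42 of 60 above the 90th, and the medians were 90.6 and 93.5. The value below 50 was that of *Atf3* in PBRM1 replicate 2, where the far upstream peak had 16 fragments and ranked at 17.9. *Junb* and *Fosl1* show how far both values can part at the same peak, the one highest by fold enrichment. At *Junb*, lowest of the set in fold enrichment, the BRG1 pileup was 74, 72 and 73 fragments. At *Fosl1*, highest by fold enrichment, it was 53, 56 and 36 fragments, so that the BRG1 stack was taller at *Junb* in every replicate. The PBRM1 pileups overlapped, with 38, 59 and 40 fragments at *Junb* and 49, 36 and 37 at *Fosl1*.

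The difference was in the local background, which follows from the pileup and the fold enrichment of each peak. With no control library, this background was the mean coverage of the 10 kb around the summit or the genome average, whichever was higher. At the strongest promoter peak, the median over the members was 7.88 times the genome average for PBRM1 and 14.6 times for BRG1, against 2.96 and 4.37 over all genes with a peak in all 6. *Junb* had the highest background, 12.48 ± 1.804 times the genome average in the PBRM1 lists (SD, n = 3) and 22.94 ± 2.207 times in the BRG1 lists (SD, n = 3). *Jund* followed with 10.4 ± 2.02 and 19.9 ± 0.746 (SD, n = 3). *Fosl1* had the lowest mean background, 3.37 ± 0.794 in the PBRM1 lists (SD, n = 3) and 4.79 ± 0.419 in the BRG1 lists (SD, n = 3), and the highest rank by fold enrichment. In 8 of 10 members the background was above the 90th percentile in all 6 replicates, which held for 7.15% of the genes with a peak in all 6. The exceptions were *Fosl1* and *Atf3*, the latter because the far upstream peak was chosen in PBRM1 replicate 2. Pileup was above the 90th percentile in all 6 replicates at 2 members, *Jund* and *Atf3*, by the tallest promoter peak, against 4.37% of genes, and at 2, *Fosl2* and *Jund*, by the peak highest in fold enrichment. Fold enrichment was above it at none, against 1.91%. The 90th percentile was chosen after the values were seen. Every BRG1 background was above every PBRM1 background in 10 of 10 members, as in 87.5% of the genes. Whether the dense coverage around these genes depends on the antibody was not tested, since the IgG libraries were not analysed here.

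**Figure D2:**
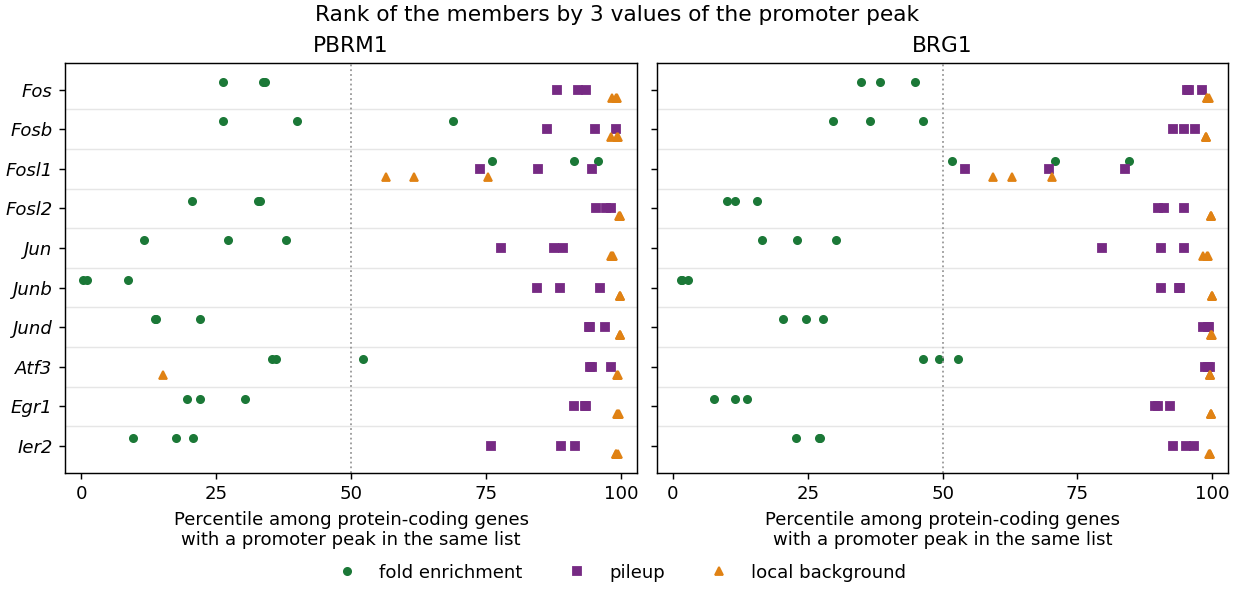
Percentile (x axis, 0 to 100) of each member among the protein-coding genes with a promoter peak in the same list, by the highest fold enrichment (green circles) and the highest pileup (purple squares) among its promoter peaks and by the local background of the peak highest in fold enrichment (orange triangles), 1 point per replicate, with a dotted line at 50. Fold enrichment places 9 of 60 points above 50 and pileup all 60, and *Fosl1* is the member whose background lies lowest in the BRG1 lists.

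PBRM1 and BRG1 were compared at each member by the percentile of fold enrichment, since fold enrichment is scaled to each library's own background. With 3 replicates against 3, the two-sided exact permutation test cannot give a p below 0.1, so that no difference could pass 0.05. At *Fos* the percentile was 34.1, 26.3 and 33.6 for PBRM1 and 34.9, 38.5 and 44.9 for BRG1, a difference of means of −8.08 (exact permutation test, p = 0.1). At *Ier2* it was 9.54, 20.7 and 17.6 against 27.1, 27.3 and 22.8, a difference of −9.78 (exact permutation test, p = 0.1). These were the 2 members with every BRG1 replicate above every PBRM1 replicate, which held for 15.9% of all genes compared. Every PBRM1 replicate was above every BRG1 replicate at 2 members, against 10% of genes. *Fosl2* had 32.7, 20.5 and 33.1 for PBRM1 and 15.6, 10.1 and 11.4 for BRG1, a difference of 16.4 (exact permutation test, p = 0.1). *Egr1* had 21.9, 19.6 and 30.2 against 7.59, 11.5 and 13.7, a difference of 13.0 (exact permutation test, p = 0.1). In the other 6 members the replicates overlapped, with differences of −8.37 to 18.7 and exact permutation p of 0.2 to 1. By pileup, BRG1 was higher in every replicate at *Fos*, *Jund*, *Atf3* and *Ier2* and PBRM1 at *Fosl2* alone. By −log10 q, BRG1 was higher at the same 4 members and PBRM1 at *Fosl2* and *Egr1*. When only peaks within 1 kb of a TSS were used, *Fos* was no longer separated, with percentiles of 2.41 to 8.36 for PBRM1 and 3.54 to 6.19 for BRG1, and *Ier2* had no value in 1 replicate.

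Within 20 kb of the 10 genes, the pooled lists together held 77 sites, where overlapping peaks were merged. Of these, 21 were in the member's own promoter, 22 in the promoter of another gene alone and 34 in neither, which are called distal here. The distal sites were intergenic in 21 cases, exonic in 8 and intronic in 5. Both pooled lists held 53 of the 77 sites, or 68.8%, against 45.3% of the 93421 sites of the whole genome. All 6 replicates held 29, or 37.7%, against 14.01% of the sites of the whole genome. Of the 29, 14 were in the member's own promoter, 8 in another promoter and 7 distal. These shares are not matched for promoters, which every member's window holds. Over the genome, 31307 of the 93421 sites were at promoters, and 2047 of the 13092 sites in all 6 replicates were distal. A share for promoter sites alone was not computed.

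Of the 60 pooled PBRM1 peaks around the members, 54 overlapped a pooled BRG1 peak. At the 53 sites held by both, the median distance between the summits was 74 bp, and 30 were within 100 bp. The 18 sites in the pooled BRG1 list alone and the 6 in the pooled PBRM1 list alone had a pooled fold enrichment of at most 5.26. None of these 24 was in all 3 replicates of its antibody or in any replicate of the other, and 15 were in no replicate. Among the sites in both pooled lists, the one 10.7 kb upstream of *Junb* at *Hook2* was in all 3 BRG1 replicates, with 4.59, 4.32 and 3.26, and in 0 of 3 PBRM1 replicates.

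**Figure D3:**
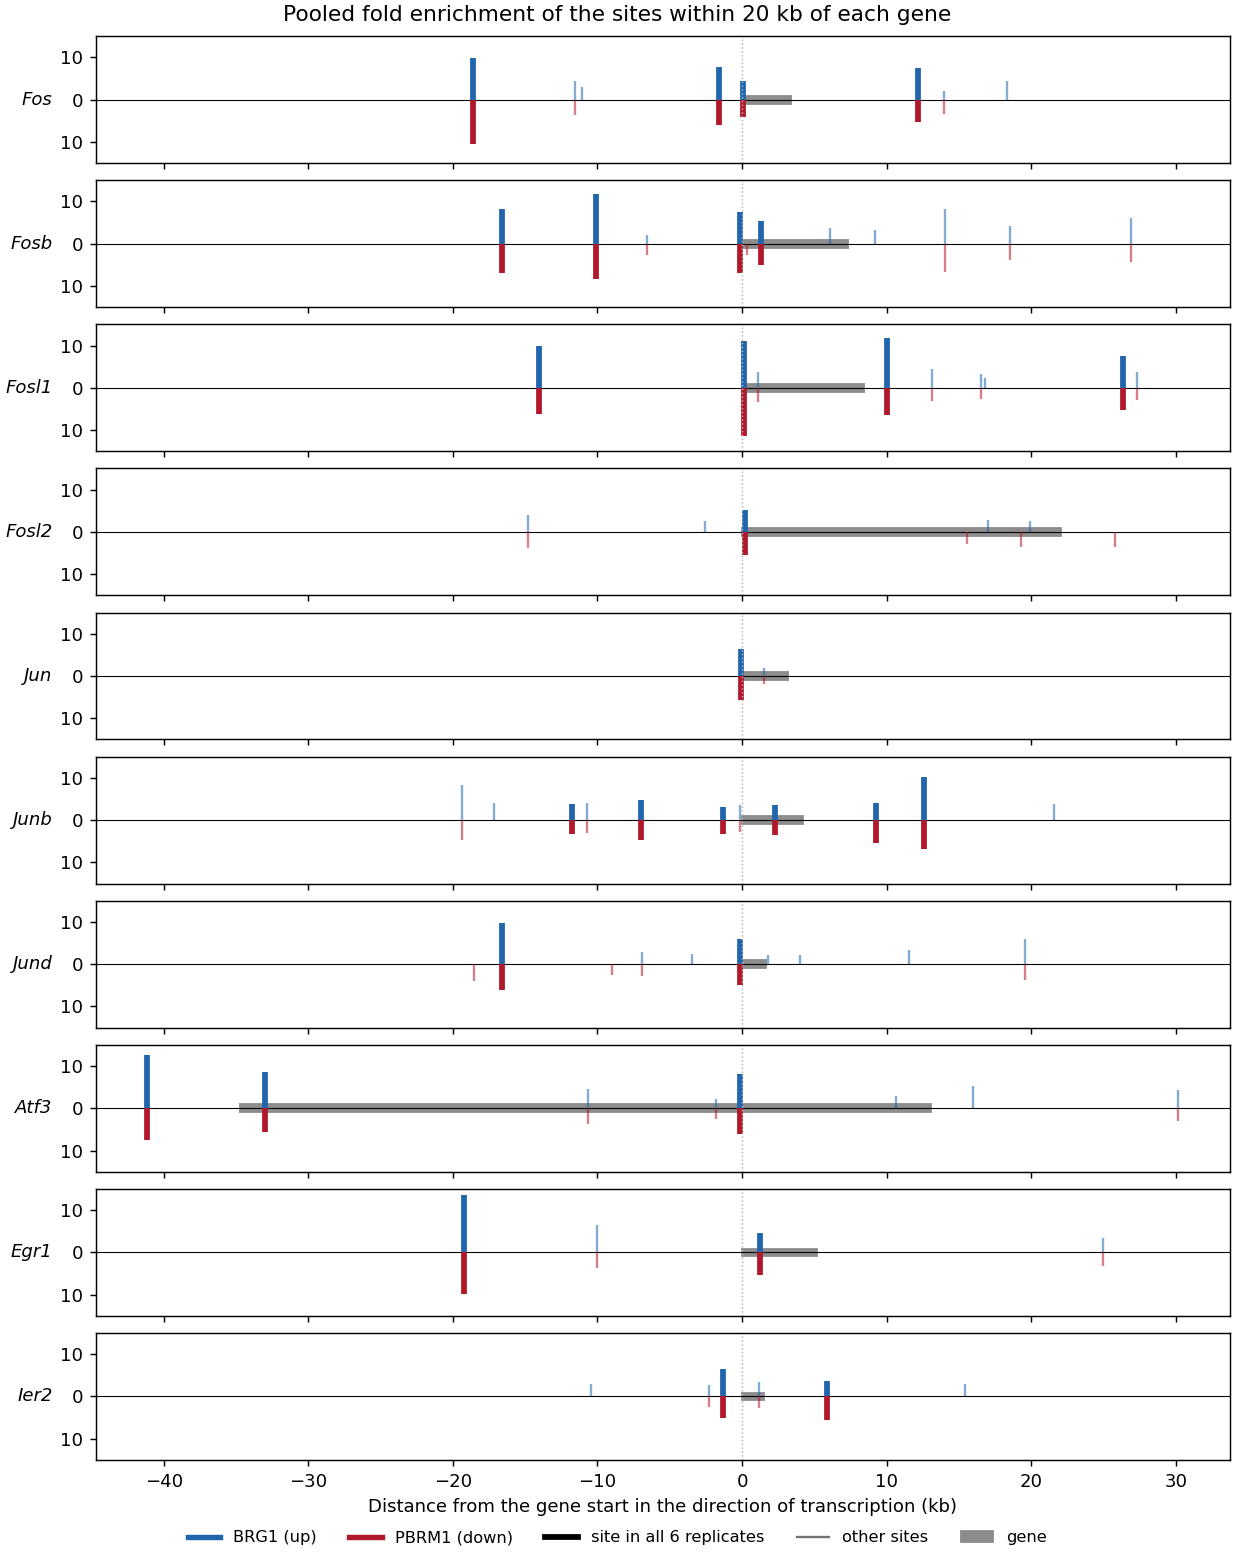
Sites of the pooled lists around each member, placed by distance from the gene start in the direction of transcription (x axis, kb), with bar height giving the pooled fold enrichment, BRG1 upward in blue and PBRM1 downward in red, thick bars for sites in all 6 replicates and grey boxes for the genes. *Fos*, *Fosb*, *Junb* and *Jund* have sites outside any promoter that are stronger than their promoter with both antibodies, while *Jun* has a promoter domain and no distal site.

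Distal sites in all 6 replicates were found at *Fos* and *Fosb* (2 each) and at *Junb*, *Jund* and *Ier2* (1 each). These 5 of 10 members compare with 8.89% of all protein-coding genes and with 11.5% of the genes with a promoter peak in all 6 replicates. At *Fos*, *Fosb* and *Jund* the strongest site of the locus outside the promoter was distal and exceeded the promoter in both pooled lists, by a ratio of 1.78 and 1.27 at *Fos*, 1.21 and 1.60 at *Fosb* and 1.24 and 1.68 at *Jund* for PBRM1 and BRG1. At *Junb* the intergenic site 7.02 kb upstream did so too, with pooled values of 4.71 and 4.78 against 3.50 and 3.68 at the promoter, and it was above the promoter in all 6 replicates. At *Junb*, *Atf3* and *Egr1* a neighbouring promoter exceeded the member's own, by 1.93 and 2.77, 1.22 and 1.49, and 1.86 and 3.03. At *Ier2* the distal site exceeded the promoter for PBRM1, by 1.10, and not for BRG1, with a ratio of 0.572. The *Ccdc85b* site near *Fosl1* had ratios of 0.571 and 1.07. At *Fosl2* no other site exceeded the promoter, and at *Jun* there was no site outside it. The genes themselves were partly covered by peaks. The pooled BRG1 peaks covered from 6.13% of *Fosl2* and 7.04% of *Atf3*, the longest members, to 39.0% of *Egr1* and 54.6% of *Ier2*, and between 12.6% and 36.3% of the other 6 genes. The 8 members of up to 10 kb compare with a median of 2.42% over the 7787 protein-coding genes of up to 10 kb, with or without a promoter peak.

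The number of peaks within 20 kb was higher for BRG1 at some members. *Junb* had 7, 8 and 7 PBRM1 peaks and 10, 9 and 10 BRG1 peaks, *Jund* 3, 2 and 2 against 5, 4 and 4, and *Atf3* 4, 4 and 4 against 6, 6 and 5. In each of these 3 members, all BRG1 replicates exceeded all PBRM1 replicates (exact permutation test, two-sided, p = 0.1, which is the lower limit), which held for 13.1% of all genes. The reverse held at 0 members and 0.0683% of genes. At the 7 other members the replicates overlapped, with exact permutation p of 0.2 to 1. The BRG1 lists hold more peaks in all. With the strongest 20000 peaks of each list, *Junb* alone had more BRG1 peaks in every replicate, with 9, 8 and 9 against 7, 7 and 7, while *Jun* had more PBRM1 peaks, with 2 in each replicate against 1. The mean difference per member, PBRM1 minus BRG1, was then −0.37 peaks in place of −1.03. Without PBRM1 replicate 2, and with peaks of −log10 q of at least 5, 5 members had more BRG1 peaks. Without BRG1 replicate 2, 4 members had more BRG1 peaks and *Jun* had more PBRM1 peaks. The mean per member was 3.8 to 4.5 peaks in the PBRM1 replicates and 5.2 to 5.3 in the BRG1 replicates, against 1.67 to 1.96 and 2.49 to 2.71 over all protein-coding genes. All protein-coding genes include 5806 with no promoter peak in any list, whereas every member had one. The mean over genes with a promoter peak was not computed.

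**Figure D4:**
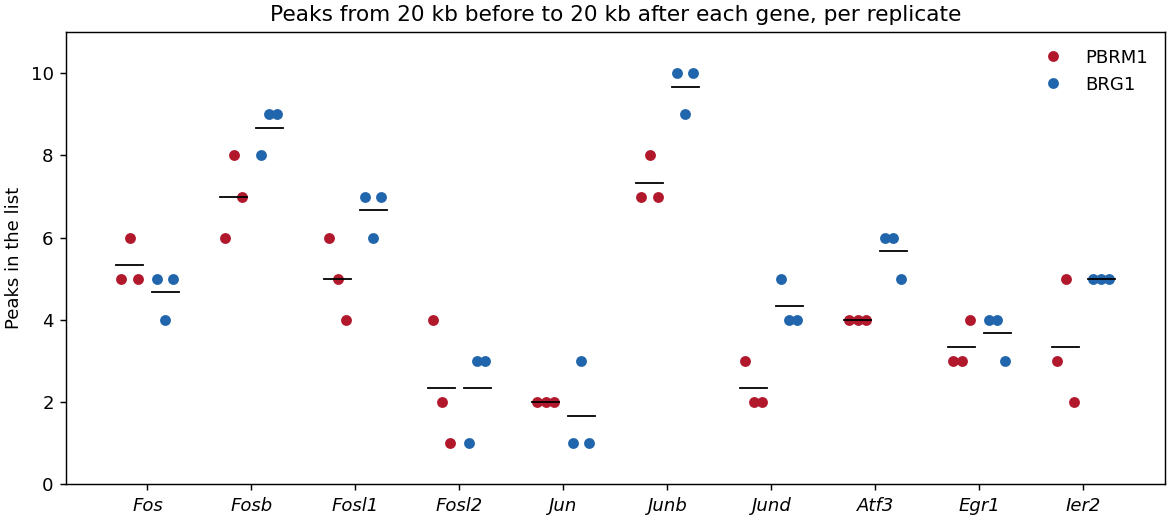
Number of peaks from 20 kb before to 20 kb after each member (y axis) in the 3 PBRM1 (red) and 3 BRG1 (blue) replicates, 1 point per replicate, with a black line at the mean. At *Junb*, *Jund* and *Atf3* every BRG1 point is above every PBRM1 point.

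Exact strings were counted on both strands up to 250 bp from the BRG1 summit of each site, or the PBRM1 summit where BRG1 had none. TGANTCA was in 16 of the 77 sites, or 20.8%, against 17.5% of all pooled BRG1 peaks and 17.1% of all pooled PBRM1 peaks. In the 34 distal sites it was in 17.6%, against 21.0% of all distal BRG1 peaks. At promoters the shares differed more. TGANTCA was in 5 of the 21 own promoter sites, or 23.8%, and in 5 of the 22 sites at other promoters, or 22.7%, against 11.3% of the pooled BRG1 peaks at promoters. Among the promoter sites found in all 6 replicates it was in 5 of the 22 around the members, or 22.7%, against 7.14% of all such sites. These 5 sites were in the windows of *Fosl1*, *Fosl2* and *Atf3* alone. TGACGTCA was in 2 sites, the *Jund* promoter and a site 10.0 kb upstream of *Egr1*, and in 1.32% of all pooled BRG1 peaks. GCGNGGGCG was in 9 sites, or 11.7%, against 4.62% of all pooled BRG1 peaks and 10.9% of those at promoters. In the promoter sites found in all 6 replicates its share was 13.6% around the members and 16.7% over the genome.

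The CArG box was in 7 of 77 sites, or 9.09%, against 2.42% of all pooled BRG1 peaks. In the members' own promoters it was in 4 of 21 sites, against 1.88% of the pooled BRG1 peaks at promoters. The *Egr1* peak alone held 5 CArG boxes, the nearest 65 bp from the summit. The others were in the promoters of *Fosb* and *Junb*, the site 12.2 kb downstream of *Fos* shown above, a weak site 11.1 kb upstream of *Fos* and a site at *Hook2* near *Junb*. The shorter string TGACGT, which TGACGTCA contains and which was added after the sequences were seen, was in 15 of the 29 sites found in all 6 replicates, or 51.7%. Of all sites found in all 6 replicates it was in 15.5% at promoters and 9.61% elsewhere. A match is a string of letters and shows no binding.

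The RefSeq promoters, which run from 250 bases before to 50 after a start of GRCm38.p6, held 7 of the members. None of the 7 contained TGANTCA, TGACGTCA or a CArG box, which were in 7.81%, 1.79% and 1.63% of all RefSeq promoters. A match further upstream was not counted here, and the CArG box of the *Fosb* promoter site lay outside its RefSeq stretch. At *Fos*, the DNA between this stretch and the peak 1.62 kb upstream was not searched in full. A missing string therefore does not show that a promoter lacks it. GCGNGGGCG was in 2, *Fosl2* and *Fosb*, against 5.55%, and TGACGT in 2, *Fos* and *Atf3*, against 7.51%. The promoters of *Fosb*, *Jun* and *Junb* are printed because BRG1 had a summit within or just beside each stretch. They are mm10, minus strand, 150 bases each that end 1 base before the GENCODE start of *Fosb* and *Jun* and the RefSeq start of *Junb*, at chr7:19310052-19310201, chr4:95052223-95052372 and chr8:84978749-84978898, with GCGNGGGCG in capitals.
*Fosb*: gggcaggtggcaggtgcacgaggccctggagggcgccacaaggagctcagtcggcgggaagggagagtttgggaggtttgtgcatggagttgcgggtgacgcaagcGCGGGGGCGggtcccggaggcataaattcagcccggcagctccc
*Jun*: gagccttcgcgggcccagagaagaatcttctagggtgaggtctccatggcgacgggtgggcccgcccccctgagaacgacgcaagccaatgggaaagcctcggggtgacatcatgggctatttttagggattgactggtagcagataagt
*Junb*: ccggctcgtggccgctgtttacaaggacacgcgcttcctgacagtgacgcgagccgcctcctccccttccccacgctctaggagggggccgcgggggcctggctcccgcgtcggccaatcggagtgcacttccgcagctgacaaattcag

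The *Jun* and *Junb* stretches held none of the 5 strings. Only exact matches were counted, and the *Jun* stretch holds TGACATCA, a near match to TGACGTCA.

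The other genes of the early response and of AP-1 signalling also had promoter peaks throughout. Of 39 other immediate early genes, such as *Ier3* and *Nr4a1*, 39 had one in both pooled lists and 33 in all 6 replicates. Their median percentile by fold enrichment was 35.5 for PBRM1 and 34.7 for BRG1, and by pileup 80.7 and 87.6, so that the gap between both ranks was present there too. Local background was above the 90th percentile in all 6 replicates at 19 of the 39. *Klf6*, *Nfkbiz* and *Nr4a2* had the highest pooled BRG1 percentiles among them. Of 14 further basic leucine zipper genes, the possible partners of FOS and JUN, 13 had a promoter peak in all 6 replicates, with medians of 55.6 and 67.8 by fold enrichment, and 3 had the high background. *Atf7*, *Mafk* and *Crem* stood highest by BRG1. Of 18 kinases and factors upstream of AP-1, 17 had a promoter peak in all 6 replicates, with medians of 70.5 and 76.1, and 2 had the high background. *Map2k4* and *Map2k1*, which encode kinases of the JNK and ERK cascades, and *Mrtfb*, which encodes a serum response factor coactivator, stood highest.

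Beside them, 15 of 17 Krüppel-like factor genes had a promoter peak in all 6 replicates, with medians of 50.4 for PBRM1 and 44.5 for BRG1 by fold enrichment and 81.4 and 78.7 by pileup. *Klf17* had none in any of the 8 lists. The high background was found at 7 of the 17. The Krüppel-like factor list shares 4 genes with the other immediate early genes, and no test of a difference between them and the AP-1 genes was made.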

How the data were processed

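Sequencing data were processed by the authors. Per the submitters' processing notes, cutadapt, Bowtie2, MACS2 and GRCm38.p5 were used, and per the file headers MACS2 2.2.7.1 called peaks without a control file at a q-value cutoff of 0.05, with a regional background of 10 kb. The deposited lists, 1 for each of 6 replicates and 1 pooled for each antibody, give per peak the pileup, a signal in fragments, the fold enrichment, a ratio of pileup plus 1 to local background plus 1, and −log10 p and q-values as the authors deposited them. The local background was recovered from pileup and fold enrichment and is given as a multiple of the genome average. Without a control library it reflects coverage near the peak, so that a narrow summit in a region of dense coverage gets a low fold enrichment.

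Peaks were joined to GENCODE vM21 genes. A promoter peak overlapped by at least 1 bp the 2 kb around any TSS of the gene. Of several, the one with the highest fold enrichment was described. For percentiles, the highest value of each measure among a gene's promoter peaks was ranked within its list. Percentiles and numbers of peaks were compared between antibodies by two-sided exact permutation tests over 3 against 3 replicates. A site's strength is the highest fold enrichment of the peaks that overlap it. The GRCm38.p6 genome and RefSeq promoters gave sequences. All 10 genes are named with their values. From other lists, the genes without a promoter peak in any list and the 3 highest by BRG1 could be named. The members and lists were chosen with earlier results of these data known. Python 3.11.15 was used with scipy 1.17.1, pandas 2.3.3 and numpy 2.4.6, and matplotlib 3.10.9 drew the figures. Promoter overlaps, string counts and the recovered background were tested on simulated data, and bedtools 2.31.1 gave the same number of shared peaks. Depth is given as fragments per library, and a peak list holds no value for regions under the cutoff, so that a missing peak does not show an absent protein. IgG libraries were not analysed here.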

Additional observations from a re-analysis of the deposited data

How the results depend on the processing

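The 10 promoters were held in both pooled lists under every other setting tried but a minimum fold enrichment of 5, which left 8 in each, and in all 6 replicates 3 were left at that minimum and 9 within 1 kb of a TSS. Of 109 values of the members' PBRM1 minus BRG1 differences under the alternatives, 99 kept their direction. The 10 that changed it were at *Fosb*, *Jun* and *Junb*, whose replicates overlapped. Of the 4 separated members, 2 were left within 1 kb of a TSS, and leaving out 1 replicate gave 4 to 6. The median percentile of the members was 27.2 for PBRM1 and 25.0 for BRG1 by fold enrichment. It was 70.3 and 73.3 by −log10 q, 92.1 and 93.8 by pileup, 90.6 and 93.5 by the pileup of the peak highest in fold enrichment and 99.1 and 99.5 by local background, all rankings added after the data were seen. For BRG1 it was 17.6 within 1 kb of a TSS and 24.2 to 26.7 without 1 replicate. The number of members separated by peaks within 20 kb was 3 as reported, 5 at −log10 q of at least 5 and 3 to 5 without 1 replicate, and *Jun*, with more PBRM1 peaks, was among them without BRG1 replicate 2. Of 60 pooled PBRM1 peaks, 54 were shared with BRG1. When PBRM1 peaks had to be in both remaining replicates, 33 of 33, 30 of 30 and 32 of 32 were shared, and when BRG1 peaks had to be, 40 to 42 of 60, both by construction fewer. With strings counted up to 100 bp from the summit, also added later, TGANTCA was in 10 sites in place of 16, the CArG box in 3 in place of 7 and TGACGT in 9 in place of 17. The cause of the other changes was not tested.

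Same-numbered PBRM1 and BRG1 replicates did not deviate together, with correlations of −0.026, −0.0078 and 0.0022 across 11388 genes, so that the numbers gave no pairing. With the replicate number as a block, 4 members were separated by percentile and 5 by number of peaks, where 3 pairs give no exact permutation p below 0.25. Of the 77 sites, 19 were in no replicate list, and the part of depth in this was not tested.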
